A study of Mus musculus with 46 samples.

Results

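Fragment P017 is the stretch of mouse chromosome 8 from 72421385 to 72421835 (mm10, as the deposited tables give it) that covers the start of Eps15l1, the gene of an adaptor protein of clathrin-mediated endocytosis. It is one of 23 promoter fragments tested from the Klf2 locus. Its constructs were those of the Klf2 Upstream library in which either fragment was P017, and those of the Downstream library whose vector carried P017. This gave 948 of the 91657 constructs listed for the series, of which 711 were Upstream and 237 Downstream. None of the 948 had a replicate at 0, so all entered the results.

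Barcoded reporter plasmids were tested in bulk in mouse embryonic stem cells of the E14TG2a line, kept in leukaemia inhibitory factor with 2 kinase inhibitors. The pools were nucleofected and the cells were harvested 24 h later. The Klf2 Upstream library was transfected together with the Nanog and negative control ones in 3 biological replicates, and the Downstream libraries in another 3. All constructs of an assay share the cell line and the transfections, and on a plasmid the chromosomal neighbourhood of a fragment is absent. In the Upstream assay 1 or 2 fragments stood in front of the reporter. In the Downstream assay the promoter stood in front of the reporter and the second fragment behind it. Activity is the deposited ratio of complementary DNA (cDNA) barcodes to plasmid DNA (pDNA) barcodes, on a linear scale whose unit is not stated in the sources used here. The signs + and - are the strands in the tables, and their relation to the direction of Eps15l1 is not stated there. Every Downstream vector with P017 carried it as +.

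A promoter fragment carries the site where transcription starts, and its neighbouring motifs set how often polymerase is loaded there. Candidate cis-regulatory elements (cCREs) are stretches with marks of regulatory DNA, and a plasmid assay asks whether one of them raises or lowers the output of a promoter placed beside it. Broadly expressed genes such as Eps15l1 often have promoters rich in GC and CpG, with GC boxes (GGGCGG, bound by Sp and Klf proteins) and no TATA box. The study's title asks how far enhancers and promoters of a genome are compatible with each other.

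The RefSeq promoter window of Eps15l1 (GRCm38.p6, the mm10 assembly), which spans 250 bases before the start and 50 after it, lies inside P017. Its start, at base 72421474, lies 102 bases inside the gene as RefSeq bounds it (outer end at 72421576), so the last 102 of the bases printed before that start belong to the gene by that bound. Of the 23 promoter fragments, 13 held such a window. The 250 bases before the start are printed for Eps15l1 and for the comparison promoters Fam32a (P013), whose profile over cCREs had the highest Pearson r with that of P017+ in both assays, and Med26 (P021), the next below P017+ in Upstream level among fragments with a window. All are written 5′ to 3′ along the gene, and capitals mark GGGCGG or its reverse complement.

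Eps15l1 in P017, chr8:72421475-72421724, minus strand: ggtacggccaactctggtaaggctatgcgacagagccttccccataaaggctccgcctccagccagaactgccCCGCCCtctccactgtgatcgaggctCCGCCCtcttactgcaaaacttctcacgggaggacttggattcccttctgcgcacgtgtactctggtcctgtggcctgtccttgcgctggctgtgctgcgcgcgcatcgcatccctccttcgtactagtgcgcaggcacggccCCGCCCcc
Fam32a in P013, chr8:72219495-72219744, plus strand: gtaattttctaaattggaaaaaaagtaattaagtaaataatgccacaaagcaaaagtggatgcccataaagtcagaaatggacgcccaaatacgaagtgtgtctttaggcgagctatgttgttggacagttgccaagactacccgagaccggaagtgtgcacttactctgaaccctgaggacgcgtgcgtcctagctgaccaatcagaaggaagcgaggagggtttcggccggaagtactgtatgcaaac
Med26 in P021, chr8:72548311-72548560, minus strand: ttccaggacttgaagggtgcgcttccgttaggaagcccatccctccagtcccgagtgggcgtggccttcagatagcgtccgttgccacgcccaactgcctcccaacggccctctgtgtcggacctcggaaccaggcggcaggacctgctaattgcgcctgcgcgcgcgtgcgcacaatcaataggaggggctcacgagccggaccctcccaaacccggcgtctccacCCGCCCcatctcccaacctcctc

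The Eps15l1 window of 300 bases was 65.0% GC and held 28 CpG, more CpG than 85.8% of the 32851 mouse promoter windows in the RefSeq table. GGGCGG occurred 3 times, always as its reverse complement, with the first base at -177, -151 and -8 from the start of the window's transcript. The match at -8 lies within the gene's outer bound, and the others lie outside it. At least 1 match was found in 35.7% of all windows and at least 3 in 10.7%. CACGTG, the E-box, occurred once at -99, within that bound (7.15% of windows hold it), and AAGATGG, a Yy1 motif core, once at 34 bases past the start (6.34% of windows). On both strands there was no match in this window to CCGGAAG (Ets, in 8.86% of windows), CCAAT (37.4%), TGACG (20.8%), GCATGCG (3.58%) or TATAAA (13.6%). No matches overlapped each other. The Fam32a window held no GGGCGG but CCGGAAG in 2 places and CCAAT in 2 places, at 49.3% GC. The Med26 window held GGGCGG once and was 67.0% GC.

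Alone in front of the reporter, P017+ was among the strongest promoter fragments of the locus. Its activity was 15.0, 15.0 and 12.2 in replicates 1 to 3, a mean of 14.1 ± 1.64 (SD, n = 3). Replicate 3 was the lowest for P017+, as it was for P022+ (19.8, 19.4 and 16.6), the Smim7 and Tmem38a promoter, which ranked first of 46 oriented fragments. P017+ ranked second, and the log2 difference between them was 0.41 with a 95% half-width of 0.70 (limma adjusted p = 0.21), so the test did not separate this pair of neighbours. In each replicate P022+ was higher, by 0.40, 0.37 and 0.45 on the log2 scale, and the replicates of the 2 fragments did not overlap. Without replicate 3 the difference passed (limma adjusted p = 0.047), and with the replicate as a block it did not (0.31). The third fragment, P003+ of Zfp961, reached 8.88 ± 1.09 (SD, n = 3), and its log2 difference from P017+ of -0.66 did not pass either (limma adjusted p = 0.065), but did without replicate 3 (0.012). P021+ of Med26 followed at 7.94 ± 0.677 (SD, n = 3) and was lower than P017+ by the test (log2 difference -0.82, limma adjusted p = 0.029). That call was lost with the replicate block (limma adjusted p = 0.081) and without replicate 1 (0.39) or 2 (0.13). In all, 42 of the 44 other oriented fragments compared, or 95.5%, were lower than P017+. The error limma used in these tests also drew on the spread over all Klf2 fragments measured alone. The log2 SD over replicates was 0.12 to 0.18 for P022+, P017+, P003+ and P021+, and 1.46 for P005-, the lowest of the 46. The differences of P022+ from P017+ within replicates had an SD of 0.039.

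The same fragment turned round gave far less. P017- measured 2.20, 2.21 and 2.13, and its replicates did not overlap those of P017+. The log2 difference was 2.68 (SE 0.30), a 6.42-fold change, with limma adjusted p = 0.0055, where 7.07% of 99 fragments tested for orientation were called. With the replicate as a block the limma adjusted p was 0.0012, and 29.3% were called (22.2% higher and 7.07% lower as +). Without replicate 1 the difference was 2.64 and the adjusted p rose to 0.72 in the fit with 2 replicates a group. P017- still lay above the median single cCRE, which had an activity of 0.143 over 165 oriented cCREs.

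In the Downstream assay the P017 vector without an insert gave 1.62, 1.71 and 1.47, rank 3 of 10 promoter vectors. P022 (mean 4.15) and P021 (2.56) stood above it and P018, which overlaps 1700030K09Rik and Calr3, below it (1.30). The replicates of these 4 vectors did not overlap each other. The P017 vector was 11.0-fold above the vector with no promoter (mean 0.150). Levels of the 2 assays are on separately made scales and are not compared.

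A cCRE placed in front of P017 seldom raised its output above that of P017 alone. Of 254 such constructs (80 cCREs), 5 were higher and 61 lower by limma's test of 3 against 3 replicates, adjusted over 3685 Klf2 constructs. Over all those constructs 16.1% were called, 4.1% higher and 12% lower. The median log2 difference was -0.39 for P017, where it was -0.28 over all promoters. With any 1 of the 3 replicates left out, 0 pairs passed by limma, as did 0 of all 3685. An unadjusted p under 0.05 was found for 56 to 151 of the 254 and for 508 to 1206 of the 3685. All comparisons of one orientation share a single baseline construct, so they shift together with it. Against the median cCRE construct in place of the promoter alone, 15 were higher and 17 lower, where 7.25% of all were called (4.83% and 2.42%).

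With P017+ the outputs lay close together. Over 135 constructs activity ran from 5.57 to 21.5 with a median of 10.9, against 14.1 for P017+ alone. None was higher and 13 were lower, with a median log2 difference of -0.36. The medians per replicate were 11.5, 12.1 and 9.44, so replicate 3 was low here too. With the replicate as a block, 2 P017+ constructs were higher and 68 lower, and over both orientations 137 were called, where 28.2% of all constructs were (6.62% higher and 21.6% lower). All 66 calls of the unblocked fit were among them.

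The 2 that rose in the blocked fit held E007+ and E057-. E007 lies within Zfp617, a zinc finger gene 499 kb away, and E057 lies between genes, nearest Klf2. E007+ before P017+ gave 22.4, 24.7 and 18.0, a log2 difference of 0.62 (limma adjusted p = 0.079, with the block 0.027). E057- before P017+ gave 23.1, 19.99 and 19.3, a difference of 0.57 (adjusted p = 0.064, with the block 0.035). Every replicate of both was above the same replicate of P017+ alone. At the low end stood E030-, between genes nearest Tpm4, at 6.64, 5.12 and 5.09, and E030+ at 6.26, 5.95 and 4.91, with log2 differences of -1.33 and -1.30 (limma adjusted p = 0.013 and 0.012).

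With P017- the same kind of construct spread over a wider range, from 0.379 to 6.09 with a median of 1.58 over 119 constructs. Here 5 were higher and 48 lower, and the median log2 difference was -0.46. The 5 that rose came from 3 cCREs. E007+ gave 5.91, 6.85 and 5.58, a log2 difference of 1.48 (SE 0.13, limma adjusted p = 0.0068), and E007- gave 4.94, 5.73 and 5.53, a difference of 1.31. E097, within Nwd1, gave 6.99, 6.28 and 4.46 as + (1.41, limma adjusted p = 0.015) and 4.36, 4.52 and 3.59 as - (0.93, limma adjusted p = 0.016). E011+, within Zfp961, gave 6.64, 5.39 and 4.02 (1.27, limma adjusted p = 0.020). All 15 of these replicate values lay above the 3 of P017- alone.

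These cCREs were themselves active without a promoter. E007+ alone measured 9.07, 9.31 and 7.57, above its pair with P017- in each replicate. E011+ alone measured 3.27, 3.02 and 3.17, E097+ 2.31, 1.93 and 2.04, E007- 1.79, 1.81 and 1.72, and E097- 1.31, 0.906 and 0.993. For these 4 the pair exceeded each fragment alone in every replicate.

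The deepest falls with P017- came from E030+, which left 0.426, 0.281 and 0.455, a log2 difference of -2.52 (SE 0.22, limma adjusted p = 0.0068). E098- left 0.627, 0.438 and 0.628 (-1.97, limma adjusted p = 0.0068). E097 and E098 are neighbours within Nwd1, 11 bases apart in the tables' coordinates, and stood at opposite ends of the P017- values. The other large falls were E038+ within Hsh2d (-1.69), E078+ within Med26 (-1.65), E092+ (-1.62) and E096+ (-1.56) within Nwd1, E015- within Zfp961 (-1.55) and E050- nearest Ap1m1 (-1.49), all with limma adjusted p from 0.0064 to 0.018. No replicate of these 8 constructs reached the lowest replicate of P017- alone.

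Set against its own median construct, each pair has a boost index, the log2 ratio of its geometric mean activity to the median cCRE construct of the same oriented promoter. The SD of this index over cCREs was 0.286 for P017+ and 0.645 for P017-. P017+ had the smallest of 44 oriented promoters, nearly equal to the 0.290 of P003+, and P017- ranked 17. The sets of cCREs differed, from 26 constructs (P012-) to 135, with 82 for P003+. The widest SD, of P024-, was at a median activity of 0.0955. For the 119 oriented cCREs measured before both, the SD of log2 activity was 0.257 with P017+ and 0.645 with P017-, with Pearson r of 0.74 and Spearman rho of 0.64 between them. These points share the cCRE, the transfections and the replicates, and the r is a description. The range of the same cCREs was narrower before P017+. E097+ had a boost index of 1.88 before P017- and 0.24 before P017+.

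With the same cCRE in front, P017+ was more active than P017- in all 119 matched constructs, and all 119 passed limma's test, where 42.2% of 1546 matched constructs of the locus did (37.6% higher and 4.59% lower as +). The median log2 difference was 2.85, near the 2.68 of the fragment alone. It was smallest with E097+ at 1.15 (13.7, 14.8 and 10.5 against 6.99, 6.28 and 4.46). It was largest with E030+ at 3.90 (6.26, 5.95 and 4.91 against 0.426, 0.281 and 0.455), followed by E096+ at 3.77 and E048+ at 3.73. The 2 groups of replicates did not overlap at either end of this range.

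The order of the fragments mattered as well. P017 stood directly before the reporter in the constructs above. With the order reversed, so that the cCRE lay between P017 and the reporter, P017+ gave a median of 2.24 over 136 constructs (0.291 to 17.1) and P017- a median of 0.666 over 159 (0.353 to 5.71). Of 236 constructs measured in both orders, 204 were higher with P017 second and 0 lower by limma, where 49.8% of 2575 were called, 48.6% higher and 1.2% lower. At an unadjusted p under 0.05, 214 differed, or 90.7%, against 52.8% of all. The median log2 difference was 1.41, made up of 2.25 for P017+ (112 of 119 called) and 1.19 for P017- (92 of 117). Without replicate 1, 101 were called, where 654 of all 2575 were higher and 5 lower.

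The widest gaps held E003+ and E004+, between genes nearest Zfp709. E003+ before P017+ gave 12.0, 13.2 and 9.48, and P017+ before E003+ gave 0.303, 0.221 and 0.369, a log2 difference of 5.30 (limma adjusted p = 0.00025). The corresponding difference for E004+ was 5.13, and E087- gave 4.17. At the other end E006+ with P017- was higher with P017 first, at 2.95, 3.29 and 2.85 against 2.12, 2.36 and 2.05, but the difference of -0.48 did not pass (limma adjusted p = 0.069). With P017- the level in this order followed the cCRE's own activity (Pearson r of log2 values 0.73 over 153 constructs), and with P017+ less closely (0.31 over 135). E007+ behind P017 gave the highest value in both orientations, 18.2, 19.6 and 14.1 with P017+ and 5.44, 6.79 and 5.05 with P017-. With P017+ this was the only one of 136 above P017+ alone.

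Another promoter placed in front left P017+ within a narrow range, while pairs with P017- lay above P017- alone for some partners and below it for others. The partners named in this comparison and the next were the largest differences in each direction. Of 77 such pairs, 13 were higher and 22 lower than P017 alone by limma, where 41.2% of 1317 promoter pairs were called (29.9% higher and 11.2% lower). With P017+, 2 of 40 were higher and 7 lower, with a median log2 difference of -0.34. With the replicate as a block, 3 of these 40 were higher and 17 lower, where 50.3% of all promoter pairs were called (34.5% higher and 15.8% lower). Over the 77 pairs, 0 passed without replicate 1 (24 at an unadjusted p under 0.05) and 12 without replicate 2. Of all 1317 promoter pairs, 0 passed without replicate 1 (371 at an unadjusted p under 0.05). Without replicate 2, 252 of the 1317 were higher and 47 lower. P018- before P017+ gave 25.9, 26.5 and 20.7 (0.79, limma adjusted p = 0.016), and P022+ gave 22.1, 23.7 and 17.7 (0.59, limma adjusted p = 0.0497). With P017-, 11 of 37 were higher and 15 lower. P022+ before P017- gave 16.2, 17.2 and 13.4, a log2 difference of 2.83 (SE 0.15, limma adjusted p = 0.00071). P021+ gave 7.66, 8.88 and 6.74 (1.82) and P021- 5.71, 6.76 and 5.19 (1.43). P022+, P021+ and P021- alone, at means of 18.6, 7.94 and 6.81, were near or above these pairs. A pair above P017- alone therefore does not by itself show an effect on P017-.

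Fragment P004, within Cyp4f18, lowered P017 from the front in every combination of orientations. Before P017- it left 0.378, 0.461 and 0.494 as - and 0.450, 0.526 and 0.397 as +, log2 differences of -2.30 and -2.26 (limma adjusted p = 0.00073 for both). Before P017+ it left 8.13, 7.44 and 6.49 as - and 7.19, 8.05 and 6.51 as +, differences of -0.93 and -0.95 (limma adjusted p = 0.0081 and 0.0072). P008- before P017- came next, -1.21. P004 alone was weak, at 0.132 ± 0.0801 as - and 0.191 ± 0.102 as + (SD, n = 3), rank 35 and 29 of 46.

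With P017 in the first position, most pairs were more active than the second promoter alone. P017+ alone, at a mean of 14.1, was itself above every other promoter alone but P022+. A pair above its partner therefore does not by itself show an effect on the partner. Of 85 pairs, 62 were higher than the second promoter alone and 0 lower by limma, where 41.2% of all 1317 pairs were called, 29.9% higher and 11.2% lower. At an unadjusted p under 0.05, 66 differed, or 77.6%, against 49.5% of all. Without replicate 1, 0 pairs passed (43 at an unadjusted p under 0.05), as did 0 of all 1317 (371 at that level). Without replicate 2, 39 passed, where 252 of all 1317 were higher and 47 lower. With P017+ first, 35 of 42 were higher, with a median log2 difference of 2.36, and all 42 differences were above 0. With P017- first, 27 of 43 were higher, with a median of 1.93. The largest was P002+ of Zfp882, which measured 0.145, 0.109 and 0.282 alone and 13.8, 14.4 and 11.2 behind P017+, a log2 difference of 6.31 (SE 0.38, limma adjusted p = 0.00071). P008+ went from 0.118, 0.0505 and 0.242 to 9.46, 8.56 and 6.49 (6.16), and P024- from 0.130, 0.0461 and 0.247 to 5.13, 5.09 and 4.55 (5.43). The 3 replicates of these weak promoters spread several-fold when alone, and P002+ behind P017+ came near the level of P017+ alone.

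The level of the pair also went with that of the partner. A split at an activity of 1, chosen after the values were seen, left 17 stronger partners for each orientation of P017, with a median of 3.32 alone. Behind P017+ these had a median of 6.90, and the 25 weaker ones 1.45. Behind P017- the medians were 4.13 for the 17 stronger partners and 0.715 for the 26 weaker ones. The rise over the partner was not compared between these classes, since it is measured from the level that splits them. The pair exceeded P017+ alone only with P022+, at 23.4, 28.5 and 20.6. Across partners the log2 activity of the pair followed that of the partner alone, with r of 0.70 over 42 pairs with P017+ and 0.92 over 43 with P017-. These values share replicates and the P017 fragment, and are descriptions. The 3 lowest differences, with P017- before P003+ (-0.49), P022+ (-0.34) and P013+ (-0.30), did not pass (limma adjusted p of 0.095, 0.18 and 0.32).

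Behind the reporter, cCREs moved P017 both ways. The P017 vector carried 153 cCRE constructs (82 cCREs), 44 promoter inserts and 40 control inserts, which were 15 shuffled and 5 random sequences in both orientations. Activity with a cCRE ran from 0.626 to 3.13 with a median of 1.43, and 51 of 153 were above the vector alone. Against the mean of the control inserts, 24 were higher and 51 lower by limma, where 52.3% of 1364 constructs were called, 37% higher and 15.3% lower. The median log2 difference was -0.08 for P017 and 0.18 over all vectors. With the replicate as a block, 44 were higher and 73 lower, where 83.9% of all were called (56.1% higher and 27.9% lower), and the 75 unblocked calls were all kept. Without replicate 2, 34 were called, where 342 of all 1364 were higher and 112 lower. Against the vector alone 16 were higher and 62 lower (10.6% and 42.4% of all, 53% together), and against the median control 50 and 36 (48.2% and 10.6% of all, 58.9% together), so the split between higher and lower turned with the baseline.

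The control inserts of P017 were spread more widely than its cCREs. They ran from 0.718 to 3.88 with an SD of log2 activity of 0.71, against 0.42 for the cCREs, and no cCRE construct was above the highest control. Only E022+, E030- and E030+ were below the lowest. The controls came from separate sub-libraries, and their order was not shared. Over 8 other vectors the Pearson r of the same control inserts ranged from -0.12 to 0.34, and between insert orientations in the P017 vector it was 0.10 over 20 inserts. For cCREs the corresponding r was 0.74 to 0.89 over 9 vectors and 0.50 between orientations over 71 cCREs. The limma counts are against the mean of these controls. Its SE over the 40 control inserts was 0.11 on the log2 scale, which the p-values leave out. Set against the spread of single controls, 3 of the 153 cCRE constructs lay outside it.

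The cCREs that raised the P017 vector most were E007- at 3.36, 2.99 and 3.06, a log2 difference of 1.05 (SE 0.11, limma adjusted p = 3.4e-05), and E008- at 2.77, 2.70 and 2.75 (0.85, limma adjusted p = 8.6e-05). E007 and E008 overlap by 69 bases in Zfp617, so they share sequence. E006, nearest Zfp882, gave 2.71, 2.48 and 2.44 as - and 2.67, 2.48 and 2.47 as +, both with a difference of 0.74. All 12 of these replicate values were above the 3 of the vector alone. E067-, which lies within Eps15l1 itself, gave 2.49, 2.33 and 2.27 (0.64, limma adjusted p = 0.00059). E046+ (0.55), E021- (0.54) and E031- (0.53) followed.

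The deepest Downstream falls were E022+, within Cyp4f18, at 0.581, 0.656 and 0.644 (-1.28, limma adjusted p = 1.3e-05), and E030 in both orientations. E030- gave 0.701, 0.664 and 0.564 (-1.24) and E030+ 0.748, 0.746 and 0.609 (-1.12). E034- within Tpm4 (-0.97), E098+ (-0.95), E081- within Med26 (-0.93), E015- (-0.87) and E105+ within Sin3b (-0.86) came next, with limma adjusted p from 4.9e-05 to 0.00013. Every replicate of these 8 constructs was below the lowest replicate of the vector alone.

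The order of the cCREs was partly shared between the assays. Downstream, the median construct of the boost index was taken over cCRE and shuffled inserts together. For the same oriented cCRE the boost index Downstream and before P017+ Upstream had a Pearson r of 0.55 over 131 oriented cCREs. Before P017- it was 0.63 over 118. Without the 2 points farthest out Downstream these were 0.49 and 0.57. The assays were separate transfections, and the points share only the fragments. Averaged over the orientations measured, E007 ranked 1 of 80 before P017+, 1 of 72 before P017- and 2 of 82 Downstream, and E030 ranked 80, 72 and 81. Before P017-, the value of E030 was that of E030+ only. Some cCREs fell outside this order. E057-, among the highest before P017+ at a boost index of 0.92, stood at -0.17 Downstream (1.30, 1.31 and 1.17), and E034- stood at 0.02 before P017+ and -0.87 Downstream.

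Promoter fragments behind the P017 reporter gave 0.556 to 3.17 with a median of 1.42. The highest were P025- of Sin3b at 3.37, 3.28 and 2.88, P021+ at 3.21, 2.90 and 2.75, and P018- at 3.10, 2.75 and 2.74, all above the vector alone in each replicate. The lowest were P008- at 0.502, 0.576 and 0.593 and P004- at 0.723, 0.776 and 0.657, both of which also lowered P017- from the front. Of the 44 promoter inserts, 0 were above the highest control insert (3.88) and 2, P008- and P004-, were below the lowest (0.718). The SD of log2 activity was 0.55 for promoter inserts and 0.71 for controls, and no test was made of the promoter inserts. A second copy of P017 behind its own reporter left the level near that of the vector, at 1.68, 1.69 and 1.47 as + and 1.46, 1.49 and 1.30 as -.

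Whether a cCRE acted otherwise on P017 than on the rest of the promoters was tested on a centred value. This was the log2 activity of the pair minus the mean over all cCRE pairs of the same oriented promoter. The centred value with P017 was compared with its mean over the other promoters, within each replicate. Upstream, 0 of 244 pairs passed by limma, as did 0% of all 3648 pairs, and 76 of the 244 had an unadjusted p under 0.05 (31.1%, against 24.1% of all). The farthest from 0 were E097+ (-2.32, half-width 0.55), E007+ (-1.60, half-width 0.69) and E097- (-1.27) before P017+, all with limma adjusted p from 0.13 to 0.14. E003+ before P017- (0.95), E089+ before P017+ (0.90) and E003+ before P017+ (0.89) lay highest, with limma adjusted p from 0.14 to 0.16.

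Downstream, 50 of 144 pairs were higher and 35 lower with P017 than with the other vectors by limma, where 69.4% of 1341 pairs were called, 31.2% higher and 38.2% lower. The 85 called pairs of P017 were 59.0% of its 144, below that share. E001+, within Zfp709, had centred values of 0.35, 0.48 and 0.53 with P017 and -0.45, -0.41 and -0.35 over 5 other vectors. The difference was 0.85 (limma adjusted p = 0.00020). E039-, within Cib3, gave 0.64 and E038+ 0.47. On the other side, E029+ had 0.15, 0.12 and 0.18 with P017 and 0.67, 0.70 and 0.76 over 6 others, a difference of -0.56 (limma adjusted p = 0.00026). E087- gave -0.54 and E011+ -0.46. These errors come from 3 replicates of the same libraries and leave out differences between the barcodes of a construct. Fitted without the replicate block, 52 pairs passed, where 349 of all 1341 were higher and 424 lower. Without replicate 2, 55 passed (331 higher and 414 lower of all). Without replicate 3, 51 passed (326 higher and 406 lower of all).

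Downstream too the SD of the boost index was smallest for P017, at 0.416 over 153 constructs. P022 was nearly equal at 0.417 over 126. The promoters with the most similar profile, by Pearson r of the boost index over shared oriented cCREs, were P013+ of Fam32a (0.89 over 144), P019+ of Cherp (0.85 over 145) and P016+ of Klf2 (0.82 over 139) Downstream. Upstream, P017+ was most like P013+ (0.87 over 29), P022+ (0.83 over 65) and P014- of Ap1m1 (0.83 over 73). By Spearman's rho P003+ (0.77 over 82) and P022+ (0.75), among others, stood above P013+ (0.70). P017- was most like P009+ of Rab8a (0.84 over 119), P021- (0.81 over 117) and P022+ (0.80 over 65). All r share the cCREs and the transfections.

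Turning a cCRE round behind the P017 reporter changed the output in 29 of 71 cases by limma, 16 higher as + and 13 lower, where 41.3% of 612 were called (23% and 18.3%). With the replicate as a block 54 passed, where 80.6% of all did. Without replicate 2, 14 passed, where 67 of all 612 were higher and 58 lower. E001 gave 1.85, 1.97 and 1.90 as + and 0.812, 0.869 and 0.960 as -, a log2 difference of 1.12 (SE 0.10, limma adjusted p = 4.2e-05). E034 (1.01) and E017 (0.80) were likewise higher as +. E105 gave 0.859, 0.891 and 0.770 as + and 1.98, 1.86 and 1.74 as -, a difference of -1.15 (limma adjusted p = 4.2e-05), followed by E106 (-0.87) and E005 (-0.74). The replicates of E001 and E105 did not overlap between orientations.

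Distance in the genome had little relation to the values with P017. Spearman's rho between the log2 difference and the distance was 0.04 over 80 cCREs Upstream and -0.02 over 82 Downstream, as a description. Within 100 kb, 0 of 51 Upstream constructs were higher and 11 lower, and farther away 5 of 203 were higher and 50 lower. The called shares were 21.6% and 27.1%, where 16.1% of all Klf2 constructs were called (4.1% higher and 12% lower). The 3 cCREs within 20 kb were E071, E072 and E073, by Calr3. Upstream they gave 7 constructs, 1 of which was lower (E071- before P017-, 1.04, 1.33 and 1.25, log2 difference -0.86, limma adjusted p = 0.019). Downstream, 3 of their 6 constructs were lower than the control mean, E071- (-0.49), E072+ (-0.47) and E071+ (-0.29), with limma adjusted p from 0.0034 to 0.038. All 3 lay within the range of the single control inserts. The 6 cCREs that overlap Eps15l1 gave 0 higher and 3 lower of 16 Upstream. Downstream they gave 3 higher and 1 lower of 10. The higher ones were E067-, E068+ (0.40) and E070+ (0.38), and the lower one was E069- (-0.44). Upstream the called shares were 14.3% within 20 kb and 18.75% over Eps15l1. Downstream they were 50% and 40%, where 52.3% of all Downstream constructs were called (37% higher and 15.3% lower).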

How the data were processed

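The values are the authors' deposited activities, per replicate the ratio of barcodes in cDNA over those in pDNA; Bowtie2 and mm10 are named in the submitters' processing notes. Barcode counting, filters and scaling are not given in the sources used here, so depth is unknown and no counting interval is given. Activities were compared on the log2 scale with limma 3.58.1 (R 4.3.3; lmFit and eBayes, 3 against 3 replicates, Benjamini-Hochberg over the whole Klf2 or Downstream table, threshold 0.05). Specificity used differences within a replicate over at least 3 other promoters. Constructs listed at 0 in any replicate were not tested (512 of 19789 in the Klf2 library).

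Replicates were numbered in the labels. For each of the 2 assays the labels list 3 cDNA and 2 pDNA samples, so the 3 ratios cannot each have their own pDNA sample. A construct and its baseline were measured in the same transfections, which pairs them, and their deviations correlated at r = 0.64 Upstream and 0.68 Downstream. The fit without a block was the main one, and p-values measure spread between transfections of the same libraries. Over the P017 constructs the Pearson r between replicates was 0.99 Upstream and 0.98 Downstream, with a median SD of log2 activity of 0.18 and 0.086. There were 9 per-replicate columns that were not used.

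The text names the 8 largest rises and falls per assay among calls on the same side in all 3 replicates, 3 each way in the other comparisons, cCREs within 20 kb, and the promoters next in level or most alike (over at least 20 shared cCREs). Others named were chosen after their values were seen. Members, lists and motifs were chosen with earlier results of these data known. Gene names and promoter windows come from RefSeq (GRCm38.p6); the tables' start coordinates are printed as given. Alternatives were other baselines, a replicate block, each replicate left out and constructs at 0 kept with a pseudocount of 0.01.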

Additional observations from a re-analysis of the deposited data

How the results depend on the processing

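The count of cCRE pairs with P017 called Upstream was 66; it was 137 with the replicate block and 32 against the median construct. With one replicate left out it was 0 in each fit, as it was over all 3685 constructs. An unadjusted limma p under 0.05 was still found for 56 to 151 of the 254 and for 508 to 1206 of the 3685. The orientation difference of P017 alone was 2.64 to 2.77 with one replicate left out and did not pass without replicate 1. Leaving out one replicate gave 101 to 189 calls for the position in the pair, 0 to 32 for promoters before P017, 0 to 60 for P017 before promoters (24 and 43 at an unadjusted p under 0.05 where the count was 0), 34 to 73 for Downstream pairs, 51 to 60 for Downstream specificity and 14 to 28 for insert orientation. Over all features, these fits called 654 to 1226 higher and 5 to 47 lower of 2575 for position. For promoter pairs they called 0 to 393 higher and 0 to 141 lower of 1317. For Downstream pairs the counts were 342 to 525 and 112 to 247 of 1364. For Downstream specificity they were 326 to 365 and 406 to 451 of 1341, and for insert orientation 67 to 162 and 58 to 121 of 612. With the replicate block, Downstream pairs gave 117 calls and insert orientation 54. Without it, Downstream specificity gave 52. The block gave 20 calls in place of 9 for promoters before P017+, and moved no count of P017 calls by over 1.5 times in the remaining comparisons. The median control as Downstream baseline, tried after seeing the data, gave 86 calls. The cause of these shifts was not tested. The fits that left one replicate out also had fewer replicates in each group. For the 68 named differences, 335 of 385 refits kept direction and side of the threshold, 49 kept the direction but no longer passed, 1 came to pass and 0 reversed.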

Other observations

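E088 is a cCRE between genes, nearest Nwd1, that no comparison above named. Behind P017- in the Upstream assay it gave 4.69, 4.42 and 3.61 as + and 2.23, 2.77 and 2.23 as -, both among the highest of the 159 constructs of that kind, while alone it measured 1.17, 0.678 and 0.928 as + and 0.942, 0.576 and 0.575 as -. The median for P017- followed by a cCRE was 0.666. E093-, within Nwd1, gave 10.4, 10.4 and 7.90 behind P017+, the highest of 136 after E007+, and 0.129, 0.0432 and 0.239 alone. These were picked out after their values were seen, and no test was made.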
